A study of Caenorhabditis elegans with 72 samples.

Results

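The genes described here encode the enzymes that free, activate and oxidise fatty acids in *Caenorhabditis elegans*: lipases, acyl-CoA synthetases, the carnitine shuttle, and the enzymes of mitochondrial and peroxisomal β-oxidation. Members were the protein-coding genes whose WormBase name begins with *acs-*, *acdh-*, *acox-*, *ech-*, *hacd-*, *cpt-*, *kat-*, *maoc-* or *lipl-* followed by a number, together with *dhs-28*, *daf-22* and *atgl-1*. They came to 72 of the 46624 genes in the table, of which 19701 were protein-coding. No measured value entered the choice.

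Stored fat is held as triglyceride, from which lipases release fatty acids. ATGL-1 acts at the lipid droplet, whereas the LIPL proteins resemble the acid lipases of the lysosome. A freed fatty acid is joined to coenzyme A by an acyl-CoA synthetase before it can be used. Long acyl chains enter mitochondria through the carnitine palmitoyltransferases, and are then shortened in repeated rounds by an acyl-CoA dehydrogenase, an enoyl-CoA hydratase, a hydroxyacyl-CoA dehydrogenase and a thiolase. Peroxisomes hold a parallel pathway that starts with acyl-CoA oxidases and ends with the thiolase DAF-22. In nematodes this second pathway also trims the side chains of ascarosides, the pheromones that control dauer entry and social behavior. Much of this chemistry takes place in the intestine, the main fat store of the worm.

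RNA of whole animals was sequenced in 4 genotypes, all in the strain background AX204 and all carrying the *npr-1* mutation. Those called *malt-1* mutants are *malt-1; npr-1* animals, the *nfki-1* mutants are *nfki-1; npr-1* animals, the *ilc-17.1* mutants are *ilc-17.1; npr-1* animals, and animals with the *npr-1* mutation alone were the control. *ilc-17.1* encodes an IL-17 cytokine, and the paracaspase MALT-1 and the IκB-like protein NFKI-1 act downstream of it; NPR-1 is a neuropeptide receptor. Each genotype has 18 labelled samples, 72 altogether, with no treatment; the labels name no alleles, and as mutant strains they carry the mutations in every tissue. The methods give fewer biological replicates than labelled samples, and fewer for *ilc-17.1* mutants than for the other genotypes. Some *ilc-17.1* samples carry a repeated replicate number. Animals of all genotypes were raised in parallel on OP50 bacteria from eggs laid over a short interval and frozen at the late L4 stage, and each replicate pooled the animals of several plates.

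The deposited table gives FPKM, which corrects the fragments of a gene for its length and for library depth, as 1 pooled value for each genotype in each comparison, and no value per sample. So depth is unknown, there is no SD, and whether a difference exceeds the spread between replicates could not be tested. Differences are given as log2 of the ratio of FPKM + 0.1, the first genotype named over the second. They were counted where the gene had at least 1 FPKM in *npr-1* and the log2 difference was at least 0.5 in size, which is 1.41-fold. Each genotype was scaled within its comparison, and the values of 1 genotype for a measured member differed between comparisons by at most 2.36%. A range of FPKM in *npr-1* is that over its comparisons with the 3 mutants, and a single value beside all mutants is from that with *malt-1* mutants.

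The mutated genes served as a check of the labels. *nfki-1* stood at 8.94 FPKM in *nfki-1* mutants and 24.1 FPKM in *npr-1*, and *malt-1* at 3.99 FPKM in *malt-1* mutants and 6.49 FPKM in *npr-1*. *ilc-17.1* was below 1 FPKM in every genotype (0.16 FPKM in *ilc-17.1* mutants and 0.31 FPKM in *npr-1*) and checks little. Of 8 intestinal markers 6 were measured, and none differed from *npr-1* by 0.5 in any mutant. *ifb-2* was listed at 0 throughout, as were 4 of the 8 hypodermal markers and 3264 protein-coding genes, among them *pod-2* and *fasn-1* of fatty acid synthesis. The 6 yolk protein genes summed to 689 FPKM in *malt-1*, 1514 FPKM in *ilc-17.1* and 1470 FPKM in *nfki-1* mutants, against 465 to 471 FPKM in *npr-1*. Of 7 germ line markers 5 (71.4%) were lower by at least 0.5 in *ilc-17.1* mutants, beside 8.62% of all genes, and 0 in the other mutants. Their median was nevertheless -0.30 in *malt-1*, -0.61 in *ilc-17.1* and -0.35 in *nfki-1* mutants. Below *npr-1* lay 7 of them in *malt-1*, 6 in *ilc-17.1* and 6 in *nfki-1* mutants. In *ilc-17.1* mutants 1 of 6 body wall muscle (16.7%) and 1 of 5 oocyte markers (20%) were higher, beside 9.77% of all genes. There 1 of 7 neuronal markers (14.3%) was lower. The neuronal median was -0.21 in *malt-1*, -0.30 in *ilc-17.1* and -0.29 in *nfki-1* mutants. Below *npr-1* lay 6 of these 7 in *malt-1*, 7 in *ilc-17.1* and 7 in *nfki-1* mutants. In *nfki-1* mutants 1 oocyte marker (20%) was higher, beside 14.5% of all genes. In *malt-1* mutants 1 of 2 measured hypodermal markers (50%) was lower, beside 7.11% of all genes.

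Of the 72 members, 48 reached 1 FPKM in *npr-1*, 3 lay below it and 21 were listed at 0 in every genotype. The genes listed at 0 were *acdh-2*, *acdh-6*, *acox-1.2*, *acox-1.4*, *acox-1.5*, *acox-1.6*, *acs-1*, *acs-2*, *acs-3*, *acs-9*, *acs-19*, *acs-20*, *cpt-4*, *cpt-5*, *cpt-6*, *ech-7*, *ech-9*, *hacd-1*, *lipl-4*, *lipl-6* and *lipl-7*. No level was read for them, since genes that growing animals use were listed at 0 as well. The 3 below 1 FPKM were *acs-24*, *lipl-1* and *lipl-8*.

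As a group the measured members were abundant transcripts, though not in every role. Their median was 56.4 FPKM in *npr-1*, and 16 of them exceeded 100 FPKM. The median over all 13241 genes past the same filter, which are not all protein-coding, was 17.06 FPKM. Among the roles with measured genes the lipases had the lowest median, 14.1 FPKM. The highest median, 330 FPKM, was that of the thiolases, a role of 1 gene. *acdh-1*, an acyl-CoA dehydrogenase known for the first oxidation step in breaking down propionate, led with 2954 FPKM in *malt-1*, 2993 FPKM in *ilc-17.1* and 3176 FPKM in *nfki-1* mutants and 2920 FPKM in *npr-1*. *ech-6*, an enoyl-CoA hydratase of the same propionate route, followed with 1395 FPKM in *malt-1*, 1277 FPKM in *ilc-17.1* and 1318 FPKM in *nfki-1* mutants and 1476 FPKM in *npr-1*. Of the members' summed FPKM, *acdh-1* alone held 38.4% in *malt-1*, 39.1% in *ilc-17.1* and 40.8% in *nfki-1* mutants and 37.1% in *npr-1*. Next in order in *npr-1* came *kat-1* with 330 FPKM, *lipl-5* with 265 FPKM and *dhs-28* with 249.5 FPKM. The 2 lowest measured members were both lipases, *lipl-2* and *lipl-3*.

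**Figure D1:**
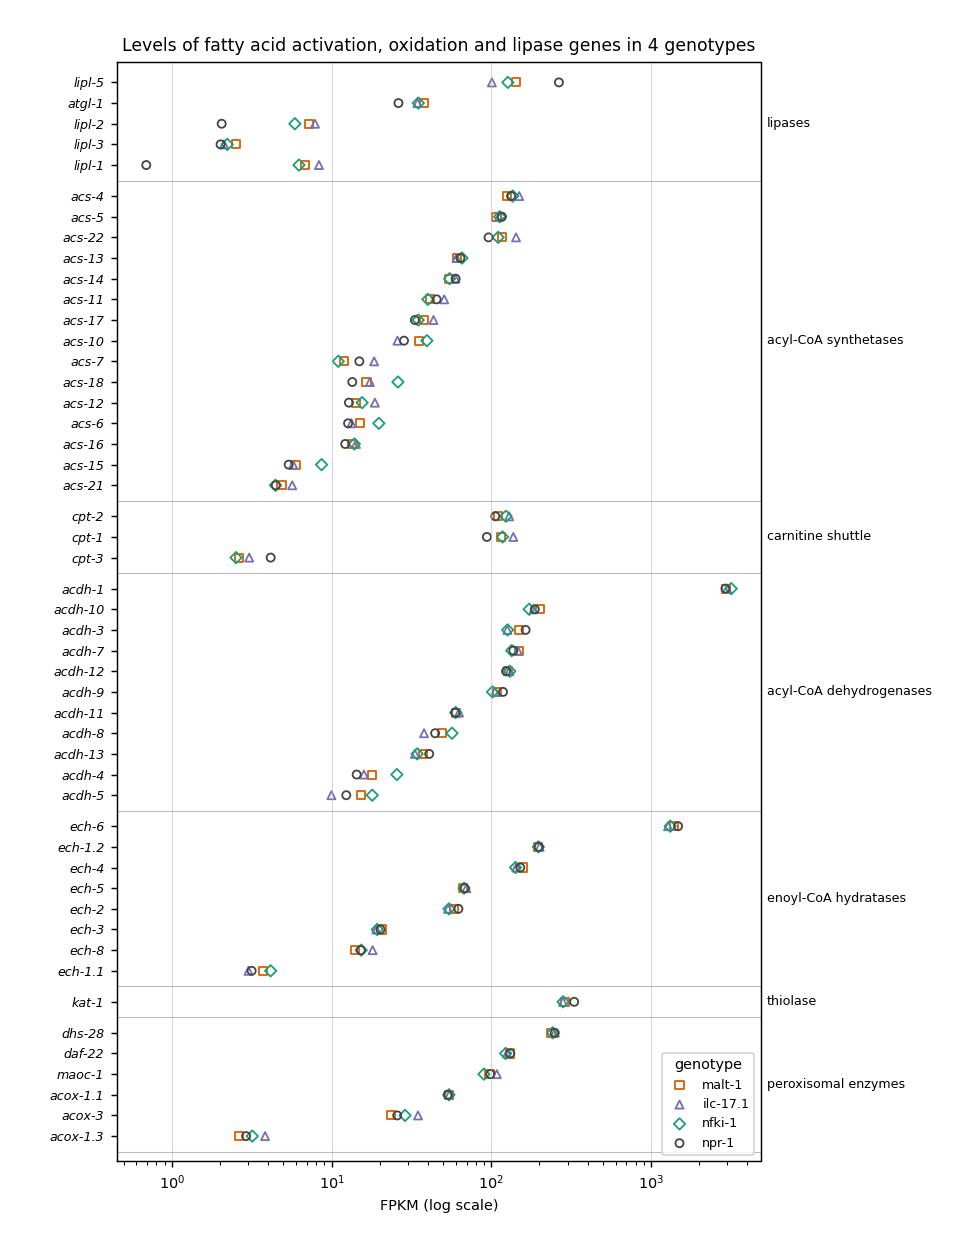
FPKM on a log axis (1 pooled value per genotype) of the 48 members with at least 1 FPKM in *npr-1*, and of *lipl-1*, grouped by role; squares, triangles, diamonds and circles stand, in this order, for *malt-1*, for *ilc-17.1*, for *nfki-1* mutants and for *npr-1*. Most genes have nearly coinciding symbols, from *acdh-1* near 3000 FPKM downwards, whereas *lipl-5*, *lipl-2* and *lipl-1* have the *npr-1* circle apart from all mutants.

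As a group the members lay close to *npr-1*. The median log2 difference of the 48 measured members was 0.02 in *malt-1*, 0.03 in *ilc-17.1* and 0.01 in *nfki-1* mutants, beside medians over all genes of -0.01 in *malt-1*, 0.01 in *ilc-17.1* and 0.00 in *nfki-1* mutants. In *malt-1* mutants 2 members (4.17%) were higher by at least 0.5 and 2 (4.17%) lower, beside 6.19% and 7.11% of all genes. In *ilc-17.1* mutants 4 (8.33%) were higher and 1 (2.08%) lower, beside 9.77% and 8.62% of all genes. In *nfki-1* mutants 6 (12.5%) were higher and 2 (4.17%) lower, beside 14.5% and 7.96% of all genes. These shares lay near or below those of all genes. Among protein-coding genes alone, the class all members belong to, the shares higher and lower were 4.61% and 4.15% in *malt-1*, 7.56% and 6.22% in *ilc-17.1* and 12.95% and 5.28% in *nfki-1* mutants, so that the members' shares higher in *ilc-17.1* and lower in *malt-1* mutants were slightly above them. The summed FPKM of all genes was lower in 2 mutants than in *npr-1*. Scaling the sums to be equal adds about 0.17 to the log2 differences in *ilc-17.1* and about 0.10 in *nfki-1* mutants. At low FPKM the shift departs slightly from this, because of the pseudocount. With this scaling 9 members (18.75%) were higher in *ilc-17.1* mutants, beside 17.7% of all genes. Past 0.5 under this scaling alone were *acox-1.3*, *acox-3*, *acs-17*, *acs-18* and *atgl-1* in *ilc-17.1* mutants and *acs-10* and *atgl-1* in *nfki-1* mutants. The 3 comparisons share the *npr-1* libraries, so their values are given side by side and an agreement between them is no independent repeat.

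**Figure D2:**
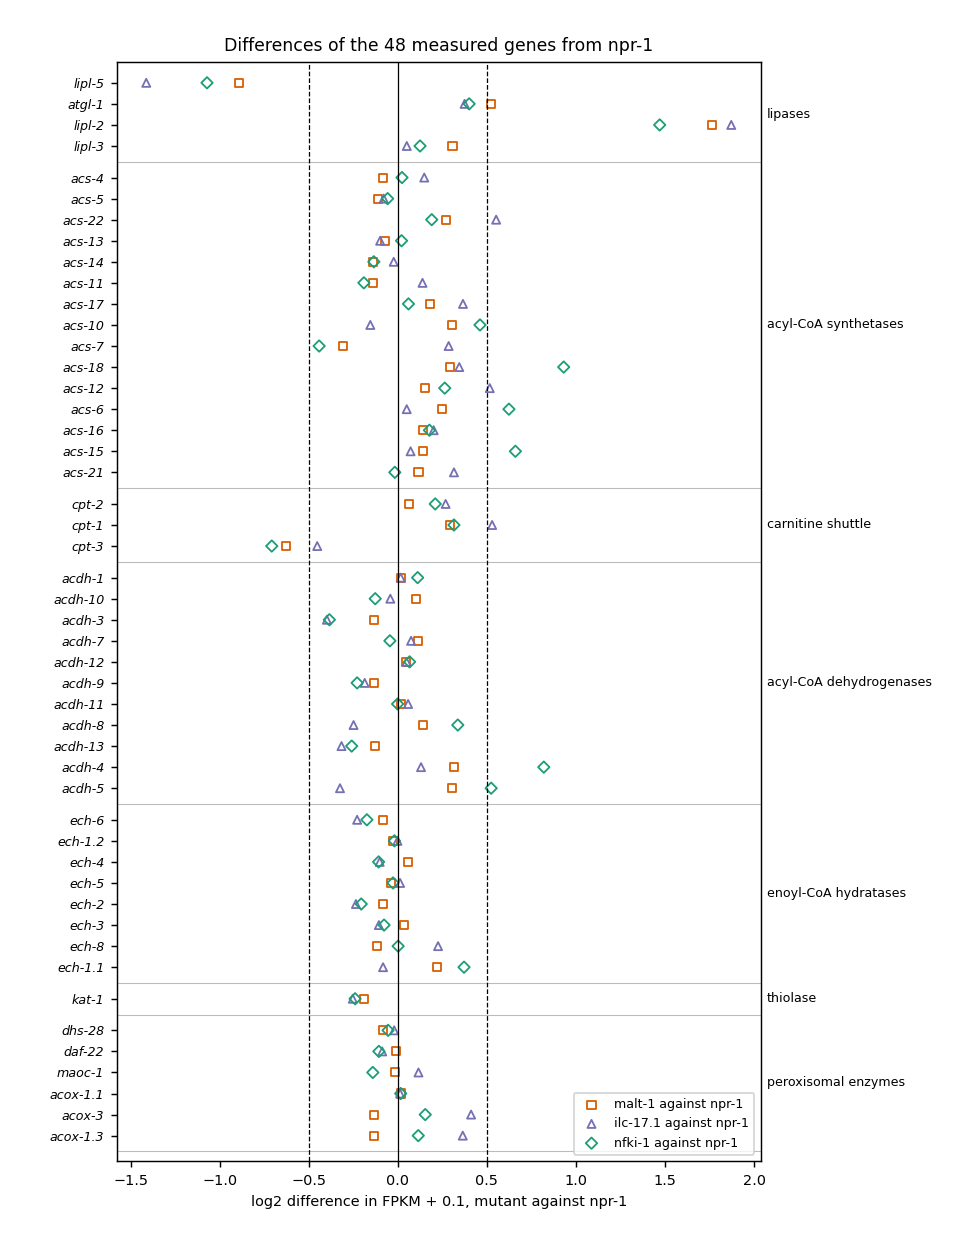
Log2 difference in FPKM + 0.1 from *npr-1* for the 48 measured members by role, with squares for *malt-1*, triangles for *ilc-17.1* and diamonds for *nfki-1* mutants and dashed lines at 0.5 and -0.5. Most symbols lie between the dashed lines; *lipl-2* lies to the right of them and *lipl-5* to the left in every mutant.

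Among measured members the largest differences from *npr-1* were those of the lipases *lipl-2*, higher, and *lipl-5*, lower, in every mutant. Only 4 of the 9 lipases reached the filter, and they differed in both directions. In *malt-1* mutants 2 were higher by at least 0.5 and 1 lower, beside 6.19% and 7.11% of all genes. In *ilc-17.1* mutants 1 was higher and 1 lower, beside 9.77% and 8.62% of all genes. The counts were the same in *nfki-1* mutants, beside 14.5% and 7.96%. With 4 genes, each alone is 25%, so these shares say little. In RNA of whole animals, fewer cells of a type and less RNA per cell cannot be told apart. *lipl-5* (chromosome V, 385713 to 388090 in the table's coordinates) is the most abundant lipase. It stood at 143 FPKM in *malt-1*, 101 FPKM in *ilc-17.1* and 127 FPKM in *nfki-1* mutants, against 265 to 269 FPKM in *npr-1*. The log2 differences were -0.89 in *malt-1*, -1.41 in *ilc-17.1* and -1.07 in *nfki-1* mutants, so that *ilc-17.1* mutants retained 0.375 of the *npr-1* level, the lowest of the mutants. Of the summed lipase FPKM, *lipl-5* supplied 72.5% in *malt-1*, 65.6% in *ilc-17.1* and 72.0% in *nfki-1* mutants and 89.5% in *npr-1*.

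*lipl-1*, *lipl-2*, *lipl-3* and *atgl-1* had higher values in every mutant than in *npr-1*, by unequal amounts. *lipl-2* (chromosome V, 9791567 to 9793234) had 7.20 FPKM in *malt-1*, 7.88 FPKM in *ilc-17.1* and 5.89 FPKM in *nfki-1* mutants and 2.05 to 2.08 FPKM in *npr-1*, log2 differences of 1.76 in *malt-1*, 1.87 in *ilc-17.1* and 1.47 in *nfki-1* mutants. *lipl-1* (chromosome V, 12919952 to 12921692) was below the filter and is named here after its values were seen. It had 6.84 FPKM in *malt-1*, 8.34 FPKM in *ilc-17.1* and 6.25 FPKM in *nfki-1* mutants and 0.69 to 0.70 FPKM in *npr-1*, with log2 differences of 3.13 in *malt-1*, 3.39 in *ilc-17.1* and 2.996 in *nfki-1* mutants that rest on the low *npr-1* level. In all mutants *lipl-1* and *lipl-2* thus reached like levels, though in *npr-1* the level of *lipl-1* was the lower. *lipl-3* lay nearer to its *npr-1* level of 2.02 FPKM, with 2.52 FPKM in *malt-1*, 2.12 FPKM in *ilc-17.1* and 2.22 FPKM in *nfki-1* mutants. *lipl-1* and *lipl-3* are known from the fasting response, in which the transcription factor HLH-30 induces and MXL-3 represses them. The log2 differences of *lipl-3* were 0.31 in *malt-1*, 0.05 in *ilc-17.1* and 0.12 in *nfki-1* mutants. *lipl-5*, the most abundant lipase, was lower in every mutant. Whether any lipase level here depends on these regulators was not tested.

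For *atgl-1*, the adipose triglyceride lipase gene, the locus given (chromosome III, 6415774 to 6421885) runs past the annotated gene, which ends at 6419459. *atgl-1* was moderately higher. It had 37.6 FPKM in *malt-1*, 34.5 FPKM in *ilc-17.1* and 34.9 FPKM in *nfki-1* mutants and 26.2 to 26.6 FPKM in *npr-1*, log2 differences of 0.52 in *malt-1*, 0.37 in *ilc-17.1* and 0.40 in *nfki-1* mutants, of which the first alone passed 0.5; scaled to equal sums all passed it, with 0.51 in *malt-1*, 0.54 in *ilc-17.1* and 0.502 in *nfki-1* mutants. Without *lipl-5*, the lipases summed to 54.2 FPKM in *malt-1*, 52.8 FPKM in *ilc-17.1* and 49.3 FPKM in *nfki-1* mutants, compared with 31.0 to 31.4 FPKM in *npr-1*. With *lipl-5* the sums were 197 FPKM in *malt-1*, 154 FPKM in *ilc-17.1* and 176 FPKM in *nfki-1* mutants and 296 to 300.1 FPKM in *npr-1*, so the direction of the summed level is set by that gene.

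**Figure D3:**
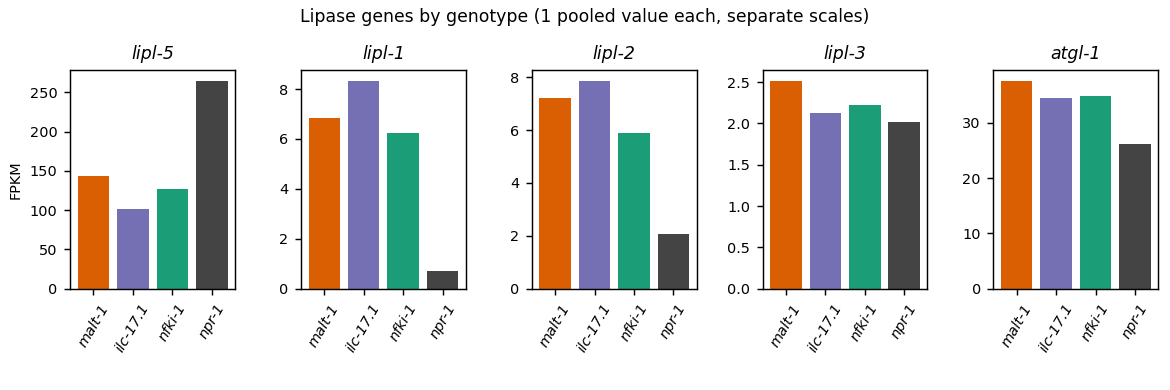
FPKM (bars from 0, a separate scale for each gene, 1 pooled value per genotype and no error bars) of *lipl-5*, *lipl-1*, *lipl-2*, *lipl-3* and *atgl-1* by genotype, in the order *malt-1*, *ilc-17.1*, *nfki-1* and *npr-1*. The *npr-1* bar is the tallest for *lipl-5* and the shortest for the other genes, most clearly for *lipl-1* (0.69 FPKM).

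Of the 22 acyl-CoA synthetase genes, 15 were measured. None passed 0.5 in *malt-1* mutants, 2 (13.3%) were higher in *ilc-17.1* and 3 (20%) higher in *nfki-1* mutants, and none was lower by 0.5 in any, beside 9.77% of all genes higher in *ilc-17.1* and 14.5% in *nfki-1* mutants. In *malt-1* mutants 6.19% of all genes were higher and 7.11% lower. Those lower were 8.62% in *ilc-17.1* and 7.96% in *nfki-1* mutants. The medians below are of the 15 synthetases. Their medians were 0.14 in *malt-1*, 0.15 in *ilc-17.1* and 0.06 in *nfki-1* mutants. *acs-4* had the highest level, with 126 FPKM in *malt-1*, 149 FPKM in *ilc-17.1* and 136 FPKM in *nfki-1* mutants and 133 FPKM in *npr-1*, and differed by at most 0.15. *acs-22*, which encodes a relative of the mammalian fatty acid transport proteins, had 116 FPKM in *malt-1*, 143 FPKM in *ilc-17.1* and 110.3 FPKM in *nfki-1* mutants and 96.0 to 97.4 FPKM in *npr-1*. Its log2 differences were 0.27 in *malt-1*, 0.55 in *ilc-17.1* and 0.19 in *nfki-1* mutants, with *ilc-17.1* mutants highest. *acs-12* was also highest in *ilc-17.1* mutants, at 14.3 FPKM in *malt-1*, 18.7 FPKM in *ilc-17.1* and 15.5 FPKM in *nfki-1* mutants and 12.8 to 13.02 FPKM in *npr-1*, with 0.52 in *ilc-17.1* mutants.

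The synthetases past 0.5 in *nfki-1* mutants were *acs-18*, *acs-15* and *acs-6*, and those in *ilc-17.1* mutants *acs-22* and *acs-12*. *acs-18* had 16.5 FPKM in *malt-1*, 17.4 FPKM in *ilc-17.1* and 26.0 FPKM in *nfki-1* mutants and 13.5 to 13.7 FPKM in *npr-1*, log2 differences of 0.29 in *malt-1*, 0.34 in *ilc-17.1* and 0.93 in *nfki-1* mutants. *acs-15* had 5.94 FPKM in *malt-1*, 5.75 FPKM in *ilc-17.1* and 8.65 FPKM in *nfki-1* mutants and 5.39 to 5.47 FPKM in *npr-1*, and so differed by 0.14 in *malt-1*, 0.07 in *ilc-17.1* and 0.66 in *nfki-1* mutants. Before any rescaling, the differences of *acs-15*, *acs-18* and *acs-6* alike passed 0.5 in *nfki-1* mutants alone. *acs-6* had 15.1 FPKM in *malt-1*, 13.3 FPKM in *ilc-17.1* and 19.8 FPKM in *nfki-1* mutants and 12.7 to 12.9 FPKM in *npr-1*, differences of 0.25 in *malt-1*, 0.05 in *ilc-17.1* and 0.62 in *nfki-1* mutants. *acs-10* reached 0.46 in *nfki-1* mutants, just short of 0.5, and was 0.31 in *malt-1* and -0.15 in *ilc-17.1* mutants, the last turning to 0.01 when each genotype is scaled to the same summed FPKM. *acs-7*, whose product activates ascaroside side chains, took opposite directions. It had 12.03 FPKM in *malt-1*, 18.5 FPKM in *ilc-17.1* and 11.02 FPKM in *nfki-1* mutants and 14.9 to 15.1 FPKM in *npr-1*, log2 differences of -0.31 in *malt-1*, 0.28 in *ilc-17.1* and -0.44 in *nfki-1* mutants. *acs-11* and *acs-14* were the lowest synthetases after *acs-7* in *malt-1* mutants, both at -0.14.

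The carnitine shuttle had 3 of 6 genes measured. *cpt-1*, the outer membrane transferase (chromosome II, 12788252 to 12796452), had 114.7 FPKM in *malt-1*, 137 FPKM in *ilc-17.1* and 118 FPKM in *nfki-1* mutants and 93.8 to 95.1 FPKM in *npr-1*, log2 differences of 0.29 in *malt-1*, 0.53 in *ilc-17.1* and 0.31 in *nfki-1* mutants. *cpt-2*, the inner membrane enzyme, had 111 FPKM in *malt-1*, 129 FPKM in *ilc-17.1* and 123 FPKM in *nfki-1* mutants and 106 to 107 FPKM in *npr-1*, differences of 0.06 in *malt-1*, 0.27 in *ilc-17.1* and 0.21 in *nfki-1* mutants. *cpt-3*, a relative of low level, was lower, with 2.65 FPKM in *malt-1*, 3.05 FPKM in *ilc-17.1* and 2.52 FPKM in *nfki-1* mutants and 4.16 to 4.21 FPKM in *npr-1*. Its log2 differences were -0.63 in *malt-1*, -0.45 in *ilc-17.1* and -0.71 in *nfki-1* mutants, and with a pseudocount of 1 that of *malt-1* mutants was -0.499, just short of the minimum.

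Enzymes of the β-oxidation cycle differed little from *npr-1*. Of 11 measured acyl-CoA dehydrogenases none passed 0.5 in *malt-1* or *ilc-17.1* mutants. In *nfki-1* mutants 2 (18.2%) were higher, beside 14.5% of all genes. None of the 8 enoyl-CoA hydratases passed 0.5 in any mutant. Of all genes 6.19% were higher and 7.11% lower in *malt-1*, and 9.77% higher and 8.62% lower in *ilc-17.1* mutants. In *nfki-1* mutants 7.96% were lower. With 11 or 8 genes, counts of 0 therefore say little. *acdh-1* differed by 0.02 in *malt-1*, 0.02 in *ilc-17.1* and 0.11 in *nfki-1* mutants and *ech-6* by -0.08 in *malt-1*, -0.23 in *ilc-17.1* and -0.17 in *nfki-1* mutants. *acdh-3* had 149 FPKM in *malt-1*, 126 FPKM in *ilc-17.1* and 126 FPKM in *nfki-1* mutants and 164 to 166 FPKM in *npr-1*, differences of -0.14 in *malt-1*, -0.40 in *ilc-17.1* and -0.38 in *nfki-1* mutants. *acdh-13* was at -0.13 in *malt-1*, -0.32 in *ilc-17.1* and -0.26 in *nfki-1* mutants. *kat-1*, the 3-ketoacyl-CoA thiolase, was lower by a small amount in each mutant, with 289 FPKM in *malt-1*, 281 FPKM in *ilc-17.1* and 281 FPKM in *nfki-1* mutants and 330 to 335 FPKM in *npr-1*, differences of -0.19 in *malt-1*, -0.25 in *ilc-17.1* and -0.24 in *nfki-1* mutants. Scaled to equal sums they were -0.20 in *malt-1*, -0.09 in *ilc-17.1* and -0.14 in *nfki-1* mutants. In *ilc-17.1* mutants this scaling left *ech-6* at -0.06, *acdh-3* at -0.23 and *acdh-13* at -0.15.

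The 2 dehydrogenases past 0.5 in *nfki-1* mutants were *acdh-4* and *acdh-5*, neighbours in rank at the low end of the family. *acdh-4* had 17.9 FPKM in *malt-1*, 15.9 FPKM in *ilc-17.1* and 25.6 FPKM in *nfki-1* mutants and 14.4 to 14.5 FPKM in *npr-1*, log2 differences of 0.32 in *malt-1*, 0.13 in *ilc-17.1* and 0.82 in *nfki-1* mutants. *acdh-5* had 15.3 FPKM in *malt-1*, 9.98 FPKM in *ilc-17.1* and 17.97 FPKM in *nfki-1* mutants and 12.4 to 12.5 FPKM in *npr-1*, differences of 0.30 in *malt-1*, -0.33 in *ilc-17.1* and 0.52 in *nfki-1* mutants. *nfki-1* mutants were thus highest for both genes, and *acdh-5* was below *npr-1* in *ilc-17.1* mutants.

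The peroxisomal enzymes also lay close to *npr-1*. All 6 measured genes of 10 stayed within 0.5 in each mutant, with medians of -0.05 in *malt-1*, 0.06 in *ilc-17.1* and -0.02 in *nfki-1* mutants. Of all genes 6.19% were higher and 7.11% lower in *malt-1*, and 9.77% higher and 8.62% lower in *ilc-17.1* mutants. In *nfki-1* mutants 14.5% were higher and 7.96% lower. With 6 genes, a count of 0 therefore says little. *dhs-28*, the hydroxyacyl-CoA dehydrogenase of ascaroside synthesis, had 236 FPKM in *malt-1*, 249 FPKM in *ilc-17.1* and 242 FPKM in *nfki-1* mutants and 249.5 to 253 FPKM in *npr-1*. *daf-22*, the terminal thiolase, had 131 FPKM in *malt-1*, 125 FPKM in *ilc-17.1* and 123 FPKM in *nfki-1* mutants and 131 to 133 FPKM in *npr-1*. *maoc-1*, the hydratase, and *acox-1.1*, an acyl-CoA oxidase, differed by at most 0.14 in size. *acox-3* departed most, with 23.5 FPKM in *malt-1*, 34.8 FPKM in *ilc-17.1* and 28.8 FPKM in *nfki-1* mutants and 25.8 to 26.1 FPKM in *npr-1*, differences of -0.13 in *malt-1*, 0.41 in *ilc-17.1* and 0.15 in *nfki-1* mutants; scaled to equal sums that of *ilc-17.1* mutants was 0.58.

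Some members are neighbours in the genome. *acox-1.1*, *acox-1.2*, *acox-1.3* and *acox-1.4* lie in tandem on chromosome I with 52, 343 and 34 bases between them in the WBcel235 annotation, yet *acox-1.1* had 53.3 FPKM in *npr-1* and *acox-1.3* 2.92 FPKM, and the other 2 were listed at 0. *acdh-10* and *acdh-7* lie 114 bases apart on the X chromosome on 1 strand and had like levels, 201 and 149 FPKM in *malt-1* mutants and 187 and 137 FPKM in *npr-1*. *acox-1* copies and the pair *acdh-1* and *acdh-2* are similar in sequence, so that single members may share reads and are uncertain. For 25 of the 72 members the table gives a locus shared with at least 1 neighboring gene, *acdh-1*, *acdh-4*, *acs-7* and *acs-18* among them; for those the coordinates are not the gene's own.

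The mutants were next compared with each other, each pair in its own comparison. Between *ilc-17.1* and *malt-1* mutants 3 members were higher in *ilc-17.1* and 2 lower (6.25% and 4.17%, beside 7.17% and 5.17% of all genes). With each genotype scaled to the same summed FPKM, 5 were higher and 0 lower. *acs-7* had 18.5 FPKM in *ilc-17.1* and 12.2 FPKM in *malt-1* mutants, a log2 difference of 0.59. *acox-3* had 34.8 FPKM in *ilc-17.1* and 23.8 FPKM in *malt-1* mutants (0.55), and *acox-1.3* differed by 0.50. *acdh-5* had 10.0 FPKM in *ilc-17.1* and 15.5 FPKM in *malt-1* mutants (-0.62), and *lipl-5* had 101 FPKM in *ilc-17.1* and 145 FPKM in *malt-1* mutants (-0.52).

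*nfki-1* and *malt-1* mutants had the fewest members past 0.5 between them. Between them 2 members (4.17%) were higher in *nfki-1* mutants and 0 lower, beside 6.87% and 3.85% of all genes. *acs-18* had 26.0 FPKM in *nfki-1* and 16.7 FPKM in *malt-1* mutants, a log2 difference of 0.63, and *acs-15* had 8.64 FPKM in *nfki-1* and 6.01 FPKM in *malt-1* mutants (0.52). *acdh-4* stood at 0.498, just under the minimum. At the other end lay *lipl-2* with 5.89 FPKM in *nfki-1* and 7.29 FPKM in *malt-1* mutants (-0.30) and *acdh-3* with 126 FPKM in *nfki-1* and 151 FPKM in *malt-1* mutants (-0.25).

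The most members past 0.5 were found between *nfki-1* and *ilc-17.1* mutants: 7 members (14.6%) were higher in *nfki-1* mutants and 1 (2.08%) lower, beside 11.1% and 5.26% of all genes. The 7 were 3 dehydrogenases and 4 synthetases. *acdh-5* had 18.35 FPKM in *nfki-1* and 10.1 FPKM in *ilc-17.1* mutants, a log2 difference of 0.86. *acdh-4* had 26.2 FPKM in *nfki-1* and 16.1 FPKM in *ilc-17.1* mutants (0.70). *acs-10*, *acs-15*, *acs-18*, *acdh-8* and *acs-6* followed with differences between 0.58 and 0.63. *acs-7* was the single gene in the other direction, with 11.2 FPKM in *nfki-1* and 18.5 FPKM in *ilc-17.1* mutants (-0.72). *lipl-2* came next at -0.40.

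**Figure D4:**
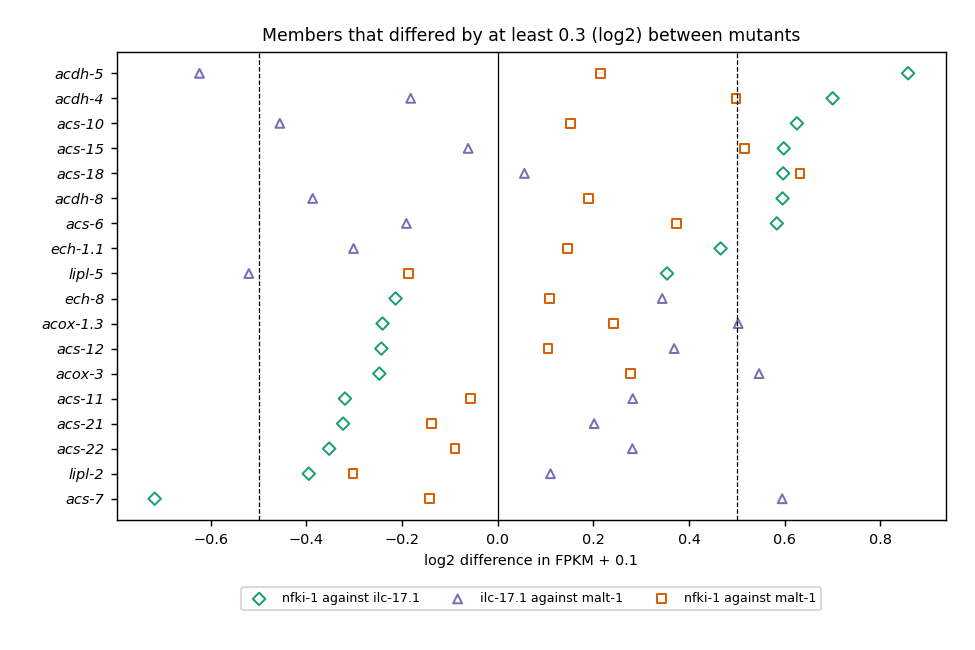
Log2 difference in FPKM + 0.1 between mutants for the 18 measured members that differed by at least 0.3 in any pair; diamonds are *nfki-1* against *ilc-17.1*, triangles *ilc-17.1* against *malt-1* and squares *nfki-1* against *malt-1*, with dashed lines at 0.5 and -0.5. Diamonds run from 0.86 for *acdh-5* to -0.72 for *acs-7* and squares stay between -0.30 for *lipl-2* and 0.63 for *acs-18*; pairs that share a genotype share its libraries.

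Sperm genes, listed after the values were seen, were set beside these 7 members. As the 7 were chosen by their difference between *nfki-1* and *ilc-17.1* mutants, their direction in that comparison was fixed by the choice. Their values against *npr-1* use the same mutant libraries. The choice therefore also favors high values in *nfki-1* and low values in *ilc-17.1* mutants, and a gap to the other members. The sperm list held the *msp* and *ssp* genes with *gsp-3* and *gsp-4*, 45 in all, of which *msp-33* and *ssp-37* were listed at 0. Between *nfki-1* and *ilc-17.1* mutants 39 of the 41 measured sperm genes were higher in *nfki-1* mutants by at least 0.5, beside 11.1% of all genes. Their median was 0.82, and the summed levels were 5207 FPKM in *nfki-1* and 2991 FPKM in *ilc-17.1* mutants. Against *npr-1* their medians were 0.19 in *malt-1*, -0.31 in *ilc-17.1* and 0.49 in *nfki-1* mutants, and they summed to 4106 FPKM in *malt-1*, 2961 FPKM in *ilc-17.1* and 5096 FPKM in *nfki-1* mutants and 3686 to 3737 FPKM in *npr-1*. The 7 members had medians of 0.29 in *malt-1*, 0.05 in *ilc-17.1* and 0.62 in *nfki-1* mutants. In *ilc-17.1* mutants 4 of the 7 were above *npr-1* and 3 below it, whereas 2 of the 41 sperm genes were above it and 39 below. Near-identical *msp* copies can share reads, and the part of sperm RNA in the values of these members was not tested.

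**Figure D5:**
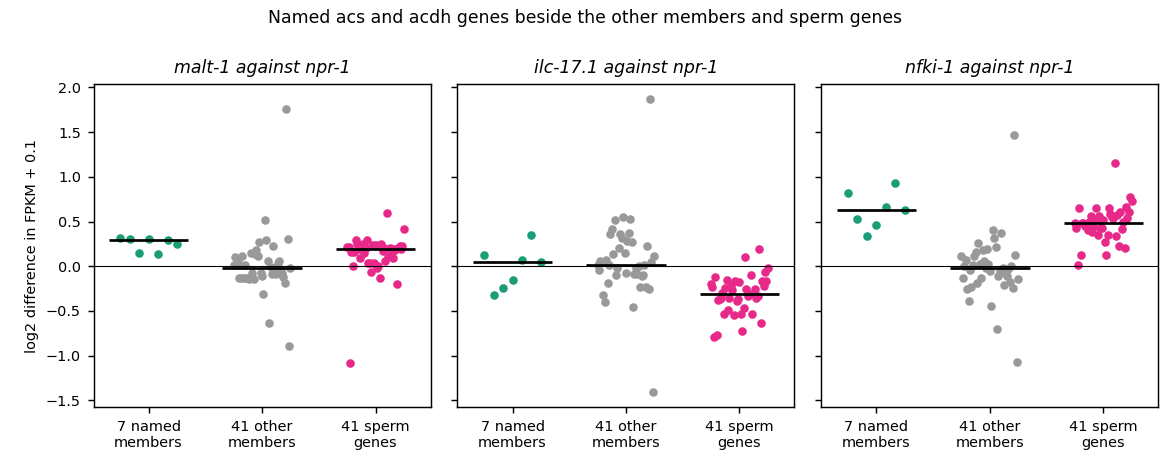
Log2 difference in FPKM + 0.1 from *npr-1*, 1 panel for each mutant, for the 7 members higher in *nfki-1* than in *ilc-17.1* mutants by at least 0.5 (*acdh-4*, *acdh-5*, *acdh-8*, *acs-6*, *acs-10*, *acs-15*, *acs-18*, chosen by that value), the 41 other measured members and 41 sperm genes; each point is a gene and the bar its group's median. In *nfki-1* mutants the median is 0.62 for the 7 members, -0.02 for the other members and 0.49 for the sperm genes, and in *ilc-17.1* mutants 0.05 for the 7 members, 0.02 for the other members and -0.31 for the sperm genes. The choice itself favors high values of the 7 in *nfki-1* mutants and a gap to the other members.

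Genes that act around these enzymes were read from lists. Of 11 measured transcription regulators of lipid use, 0 differed by at least 0.5 in *malt-1* mutants, 1 was higher in *ilc-17.1* mutants, and 1 was higher and 1 lower in *nfki-1* mutants. Each single gene is 9.09%. Of all genes 9.77% were higher in *ilc-17.1* mutants, and 14.5% higher and 7.96% lower in *nfki-1* mutants. In *malt-1* mutants 6.19% were higher and 7.11% lower. The counts thus lay near or below these shares. *hlh-30*, the lysosomal and fasting regulator related to TFEB, had 53.8 FPKM in *malt-1*, 72.4 FPKM in *ilc-17.1* and 69.0 FPKM in *nfki-1* mutants and 45.6 to 46.2 FPKM in *npr-1* (0.24 in *malt-1*, 0.65 in *ilc-17.1* and 0.59 in *nfki-1* mutants). *mxl-3*, its antagonist at lipase genes, had 90.8 FPKM in *malt-1*, 75.8 FPKM in *ilc-17.1* and 71.3 FPKM in *nfki-1* mutants and 103 to 105 FPKM in *npr-1* (-0.19 in *malt-1*, -0.47 in *ilc-17.1* and -0.55 in *nfki-1* mutants). *nhr-49*, the nuclear receptor that promotes β-oxidation, differed by 0.04 in *malt-1*, 0.28 in *ilc-17.1* and 0.08 in *nfki-1* mutants. *sbp-1* was at 0.06 FPKM in *npr-1* and was not read.

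Among 13 measured peroxisome genes, *pmp-4* (7.69%) alone passed 0.5, beside 6.19% of all genes higher in *malt-1*, 9.77% in *ilc-17.1* and 14.5% in *nfki-1* mutants. *pmp-4* encodes an ABC transporter of the peroxisomal membrane. Its level was 31.6 FPKM in *malt-1*, 41.6 FPKM in *ilc-17.1* and 35.7 FPKM in *nfki-1* mutants and 19.1 to 19.4 FPKM in *npr-1*. Its log2 differences were 0.72 in *malt-1*, 1.096 in *ilc-17.1* and 0.89 in *nfki-1* mutants. Of 4 measured genes of other lipases and the lipid droplet, 1 (25%) was lower by at least 0.5 in every mutant. Of all genes 7.11% were lower in *malt-1*, 8.62% in *ilc-17.1* and 7.96% in *nfki-1* mutants. The lower gene was *dgat-2*, for the acyltransferase that makes triglyceride. It had 40.0 FPKM in *malt-1*, 29.5 FPKM in *ilc-17.1* and 35.3 FPKM in *nfki-1* mutants and 60.9 to 61.8 FPKM in *npr-1* (-0.61 in *malt-1*, -1.06 in *ilc-17.1* and -0.80 in *nfki-1* mutants). *lbp-8*, a lysosomal fatty acid carrier, was the single carrier of 9 past 0.5 (11.1%), in *malt-1* mutants, beside 6.19% of all genes higher there. It had 3.29 FPKM in *malt-1* mutants and 2.16 FPKM in *npr-1* (0.59), and was at 0.20 in *ilc-17.1* and -0.06 in *nfki-1* mutants. None of the 9 genes of propionate and branched-chain breakdown passed 0.5 in any mutant, and their medians were -0.15 in *malt-1*, -0.12 in *ilc-17.1* and -0.19 in *nfki-1* mutants.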

How the data were processed

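Reads of polyA-selected, stranded libraries were trimmed with Trim Galore 0.4.3, aligned with TopHat2 2.1.0 and quantified with Cufflinks 2.2.1 and Cuffdiff by the authors, as the submitters' processing notes and the methods name them; the genome build is not given in the sources used here. The authors deposited 1 table with an FPKM value for each genotype in 7 comparisons, 1 of them a repeat in reversed order. As 0 columns hold values per sample, the fits planned with limma were not possible, and counts and medians stand in for a test. The table's own fold changes, test statistics, p-values and q-values hold the study's findings and were not used.

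Identifiers were matched to WormBase names (43276 of 46624) and gene types (46059) of the Ensembl release 115 annotation of WBcel235. Of 47 members with a locus of their own, 44 had both ends within 200 bases of that annotation. The log2 difference used a pseudocount of 0.1, a filter of 1 FPKM in *npr-1* (for pairs of mutants, in the *malt-1* comparison) and a minimum of 0.5, in Python 3.11.15 with pandas 2.3.3. Counting was tested on simulated data. Named members are the 6 most different in each direction in each mutant, the 5 of highest level, the highest of each role, *dhs-28*, *daf-22*, *atgl-1*, and the 2 most different in each direction between mutants; *lipl-1*, *acdh-8*, *acox-1.1*, *acox-1.3*, *maoc-1*, *acdh-7* and *acdh-10* were added after their values were seen. Members and lists were chosen with earlier results of these data known. Alternatives changed the pseudocount, filter, minimum and scaling.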

Additional observations from a re-analysis of the deposited data

Results flagged for a closer look

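*acs-7* and *acdh-5* differed from *npr-1* by at least 0.25 (log2) in opposite directions in different mutants. *acs-7*, which activates ascaroside side chains, was higher than *npr-1* in *ilc-17.1* mutants and lower in *malt-1* and *nfki-1* mutants; its direct log2 difference was 0.595 for *ilc-17.1* against *malt-1* mutants and -0.717 for *nfki-1* against *ilc-17.1* mutants. *acdh-5*, an acyl-CoA dehydrogenase gene, had the reverse pattern, with -0.624 for *ilc-17.1* against *malt-1* mutants and 0.858 for *nfki-1* against *ilc-17.1* mutants. Scaled to the same summed FPKM, *acdh-5* was at -0.16 in *ilc-17.1* mutants, short of 0.25, so that its opposite directions from *npr-1* past that minimum are lost. Its difference was then -0.45 for *ilc-17.1* against *malt-1* mutants, short of 0.5, but 0.78 for *nfki-1* against *ilc-17.1* mutants, still past 0.5. *acs-7* remained past 0.25 in each mutant. The table holds no values per sample, so these differences were not tested.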

How the results depend on the processing

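No paired analysis was possible because the table holds no values per sample, and for the same reason no replicate could be left out. Without a pseudocount, without a filter, with a filter on the mean over genotypes, with centring on the median of all genes, and with means over comparisons, all counts of members stayed within 1.5 times and all medians within 0.1. The minimum decided the counts most. At 0.25, the members higher than in *npr-1* were 9 in *malt-1*, 12 in *ilc-17.1* and 12 in *nfki-1* mutants (18.9%, 24.3% and 25.9% of all genes); in the direct comparisons they were 7 for *ilc-17.1* against *malt-1* and 5 for *nfki-1* against *malt-1* (20.5% and 17.9%); those lower were 5 in *nfki-1* and 6 in *ilc-17.1* mutants (20.5% and 22.5%), 7 for *ilc-17.1* against *malt-1*, 2 for *nfki-1* against *malt-1* and 6 for *nfki-1* against *ilc-17.1* (18.8%, 11.5% and 13.99%). At 1, 1 member was higher in each mutant (*lipl-2*; 1.47% to 2.71% of all genes), 0 lower in *malt-1* and 1 lower in *nfki-1* mutants (3.50% and 3.80%), and 0 higher or lower in every pair of mutants (1.67% to 2.30%). With at least 5 FPKM in *npr-1*, 1 member was higher and 1 lower in *malt-1* and 1 lower in *nfki-1* mutants (4.28%, 4.06% and 5.26%). A pseudocount of 1 left 1 member lower in *malt-1* mutants and 1 higher for *nfki-1* against *malt-1* (5.63% and 5.38%). Scaling each genotype to the same summed FPKM shifted genes by about 0.17 in *ilc-17.1* and about 0.10 in *nfki-1* mutants, with slight departures at low FPKM. The medians against *npr-1* became 0.20 in *ilc-17.1* and 0.11 in *nfki-1* mutants, 0.17 for *ilc-17.1* against *malt-1* and 0.11 for *nfki-1* against *malt-1*; 9 members were then higher in *ilc-17.1* mutants, and 5 higher and 0 lower for *ilc-17.1* against *malt-1* (17.7%, 14.4% and 2.88%). No member past 0.5 changed sign under any alternative; under this scaling small negative values of 11 members in *ilc-17.1* mutants (*dhs-28*, *daf-22* and *acs-10* among them) and 8 in *nfki-1* mutants turned positive. The unknown depth limits genes of low level such as *lipl-1*, *lipl-2*, *lipl-3* and *cpt-3* most.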
